A study of Macaca mulatta with 8 samples.

Results

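The 10 immunometabolic genes followed through primary microglia of rhesus macaques were IDO1, KMO and KYNU of the tryptophan and kynurenine route, ACOD1 of the itaconate route, SOD2 of superoxide removal, GCH1, NOS2, SLC7A2 and ARG2 around arginine and nitric oxide, and NAMPT of NAD salvage. They were chosen by name, with earlier results of these data known, and each of the 10 symbols matched 1 gene among the 35432 of the count files. All 10 were among the 12131 genes that passed a filter on low counts. SLC7A2 encodes a transporter and the other 9 encode enzymes.

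MRS2578 blocks P2RY6, a nucleotide receptor for which UDP is the ligand, and microglia are macrophages that reside in the brain. The cells came from the subcortical white matter of 4 adult animals, R07110, R12016, R02046 and R14143, and were cultured for 8 days in serum-containing medium with M-CSF. On day 7 they received 10 µg/mL ultrapure lipopolysaccharide (uLPS, a TLR4 agonist) for 16 h, either alone (uLPS, 4 libraries) or after 1 h with 5 µM MRS2578 (uLPS+MRS2578, 4 libraries, 1 from each animal). No library without uLPS was analysed here, so the induction of these genes by uLPS was not measured, and only their abundance after uLPS and the difference made by MRS2578 are described. MRS2578 was dissolved in DMSO, and the study's methods say that assays with it had DMSO controls, though the sample labels do not name the solvent for the uLPS libraries. The donor is the replicate throughout, and in bulk RNA a smaller share of one cell type and less RNA per cell cannot be told apart.

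Activated macrophages redirect several metabolic routes. IDO1 opens the kynurenine route by oxidising tryptophan, KMO hydroxylates kynurenine and KYNU cleaves kynurenine and its hydroxylated product. ACOD1 makes itaconate from the citrate cycle intermediate cis-aconitate. GCH1 makes the first intermediate of tetrahydrobiopterin, the cofactor that NOS2 needs to make nitric oxide from arginine, while ARG2 turns arginine into ornithine and SLC7A2 carries arginine into the cell. SOD2 converts superoxide in mitochondria, and NAMPT recycles nicotinamide into NAD.

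For the donor R02046, the sample labels and the study's own supplementary gene list differ. Each of the 8 columns of that list matched 1 library up to a constant factor, with a coefficient of variation of the ratio of at most 1.42e-06 (next best library: 0.361 or more). For 6 columns the condition was that of the sample label, and in the 2 columns of R02046 the conditions were exchanged. Neither source settles which assignment holds. Effects are therefore given first with the sample labels, then with the R02046 libraries exchanged, then without R02046. Exchanging them turns the sign of that donor's differences and leaves its levels as they are.

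The libraries held between 9231109 and 32790348 counted reads. Levels are CPM, read counts relative to a library size scaled by TMM, and 3 counts, the limit that a count of 0 allows, correspond to 0.0914 to 0.320 CPM. This limit covers counting error only. Of the 14 listed markers of microglia and macrophages, 13 were found, and they summed to between 5712 and 6967 CPM with uLPS and between 5333 and 6708 CPM with MRS2578. Among those that set microglia apart, P2RY12 was at 5.70 to 13.3 CPM, while CX3CR1 was at or below 2.21 CPM and TMEM119 at or below 0.316 CPM. TREM2, from the same list, was at 11.7 to 39.7 CPM. Fibroblast markers, all 5 found and none at 0 in every library, summed to between 90.2 and 1191 CPM with uLPS and between 204 and 530 CPM with MRS2578. All 6 lymphocyte markers were found, with CD3G at 0 in every library, and summed to at most 0.518 CPM. The sums were 61.7 to 75.8 CPM for the 4 oligodendrocyte markers found of 6, 45.9 to 150.5 CPM for all 5 astrocyte markers, 157 to 294.9 CPM for all 6 markers of endothelial and mural cells, and at most 1.02 CPM for all 4 neuronal markers. Log2 fold changes are those of uLPS+MRS2578 over uLPS, from edgeR's quasi-likelihood fit with the donor as a block, and are given ± SE with p adjusted over all genes tested. P2RY6 itself was at -0.03 ± 0.13 (adjusted p = 0.986) with the sample labels and -0.14 ± 0.11 (adjusted p = 0.570) with the R02046 libraries exchanged.

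The upstream sequence of KMO is shown because KMO and IDO1 were the 2 of the 10 genes called lower by edgeR's quasi-likelihood test with the R02046 libraries exchanged, and that of KYNU because it belongs to the same route and was not called by that test. Both are the 250 bases before the RefSeq gene start in Mmul_10, on the strand of the gene (KMO, minus strand, chr1:7549922-7550171; KYNU, plus strand, chr12:30037311-30037560). Capitals mark a match to 2 copies of GAAA with 2 bases between them, the core of the interferon-stimulated response element, to which interferon regulatory factors bind.
KMO: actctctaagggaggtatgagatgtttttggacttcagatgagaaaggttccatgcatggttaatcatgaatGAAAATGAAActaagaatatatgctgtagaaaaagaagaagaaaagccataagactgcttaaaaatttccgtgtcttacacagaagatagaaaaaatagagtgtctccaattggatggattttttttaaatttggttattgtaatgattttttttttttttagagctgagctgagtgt
KYNU: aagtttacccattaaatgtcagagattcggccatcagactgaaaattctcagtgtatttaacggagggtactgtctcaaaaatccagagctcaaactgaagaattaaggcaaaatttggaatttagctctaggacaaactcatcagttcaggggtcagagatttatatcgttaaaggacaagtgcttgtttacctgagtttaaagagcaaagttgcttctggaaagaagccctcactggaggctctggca
In windows from 250 bases before to 50 bases after the gene start, both strands, this pattern was present in 3.51% of 20782 promoters and in 2 of the 10 genes. KMO had 1 match, at -178, and IDO1 had 2, at -201 and -126 from the gene start. The STAT pattern TTCNNNGAA was present in 6.99% of promoters, the AP-1 pattern TGANTCA in 5.92% and the NF-kB consensus in 5.86%, and each in 0 of the 10. With 0 matches to those other patterns, no overlap between patterns was possible in these genes. These matches are letters in a window and not measured sites, and their part in the differences with MRS2578 was not tested.

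Per kilobase of exon, 4 abundant transcripts stood above the other 6, and SLC7A2 and NOS2 stood below the rest of those 6. With uLPS the mean log2 ratio was 3.95 for KYNU over ARG2 and 3.97 for GCH1 over SLC7A2. With uLPS, IDO1 was highest, at 2289 ± 1291 CPM per kb (SD, n = 4 donors), followed by SOD2 at 1037 ± 411, ACOD1 at 856 ± 214 and KYNU at 371 ± 41.4. ARG2 followed at 24.1 ± 4.13 CPM per kb, KMO at 23.8 ± 7.39, NAMPT at 17.7 ± 4.49 and GCH1 at 10.3 ± 7.00. SLC7A2, at 0.704 ± 0.594, and NOS2, at 0.306 ± 0.265 CPM per kb, closed the order. Between neighbours, the ranges over donors did not overlap from ACOD1 to KYNU, from KYNU to ARG2 and from GCH1 to SLC7A2, and they overlapped for the other 6 neighbouring pairs. ARG2 and KMO were each the higher of the pair in 2 of 4 donors. With MRS2578 and the sample labels, ACOD1 at 780 ± 222 CPM per kb and SOD2 at 777 ± 157 stood in the other order, each higher in 2 of 4 donors, and the rest of the order was the same. The exchange of the R02046 libraries turned some of these neighbours: SOD2 at 737 ± 194 stayed above ACOD1 at 697 ± 195 with MRS2578, where KMO, at 15.2 ± 2.33, came below NAMPT, at 17.6 ± 5.11, and with uLPS KMO, at 27.4 ± 1.82, came above ARG2, at 25.3 ± 3.52. In plain CPM with uLPS, SOD2, at 4371 ± 1735, was above IDO1, at 3186 ± 1797, the reverse of their order per kb. The order per kb depends on RefSeq exon lengths, 1.392 kb for IDO1 and 4.216 kb for SOD2, while reads were counted on Ensembl genes. In plain CPM, IDO1, SOD2, ACOD1 and KYNU with uLPS lay above at least 98.7% of the genes that passed the filter, and NOS2 above 5.86%.

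**Figure D1:**
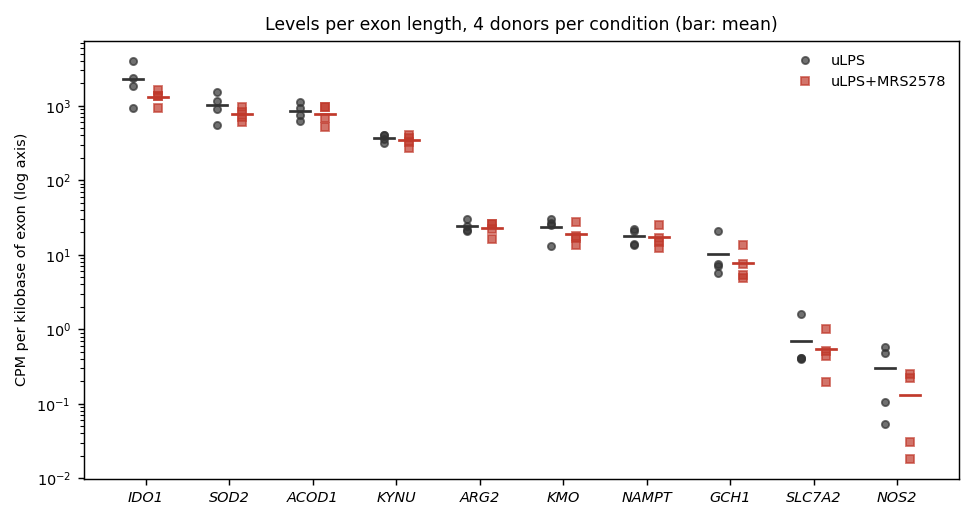
Level of each gene in CPM per kilobase of exon (log axis), with 1 point per donor and condition as labelled and a bar at the mean of 4 donors. IDO1, SOD2, ACOD1 and KYNU sit apart from the other 6 genes in both conditions, and SLC7A2 and NOS2 lie lowest, apart from the rest.

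IDO1 and KMO were both lower with MRS2578 in 3 donors, R07110, R12016 and R14143, and R02046 as labelled went the other way. IDO1 (ENSMMUG00000019304; Mmul_10 chromosome 8, 40503015 to 40518713, plus strand, 10 exons) was at 2596, 5600, 1313 and 3235 CPM with uLPS in the donors R07110, R12016, R02046 and R14143, the order kept for all values below. With MRS2578 it was at 1316, 1864, 2277 and 1872 CPM. The level with MRS2578 was 50.7%, 33.3% and 57.9% of that with uLPS in R07110, R12016 and R14143, and 173% in R02046 as labelled. The groups overlapped with the sample labels because the uLPS library of R02046 was the lowest of its group.

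The log2 fold change of IDO1 was -0.66 ± 0.37 (adjusted p = 0.878) with the sample labels. It was -1.04 ± 0.16 (adjusted p = 0.0427) with the R02046 libraries exchanged and -1.12 ± 0.20 (adjusted p = 0.155) without R02046. In the exchanged assignment the means were 3427 ± 1502 CPM with uLPS and 1592 ± 319 CPM with MRS2578, and the groups did not overlap. That call was lost without R07110 (-1.06, adjusted p = 0.303), without R12016 (-0.85, adjusted p = 0.0765) and without the donor block (-1.11, adjusted p = 0.829), at log2 fold changes of similar size. Over all genes, these fits called 0 of 12082, 5 of 12207 and 0 of 12131, so the loss was not particular to IDO1.

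KMO (ENSMMUG00000005668; chromosome 1, 7491876 to 7549921, minus strand, 15 exons) was much scarcer. With uLPS it was at 45.2, 48.0, 23.3 and 53.1 CPM. With MRS2578 it was at 23.7, 29.5, 48.9 and 31.5 CPM. The 2 libraries of R02046 lay within the range of the opposite condition of the other 3 donors or beside it: 23.3 CPM as labelled uLPS against 23.7 to 31.5 with MRS2578, and 48.9 CPM as labelled MRS2578 against 45.2 to 53.1 with uLPS. Its log2 fold change was -0.36 ± 0.32 (adjusted p = 0.906) with the sample labels, -0.86 ± 0.10 (adjusted p = 0.0328) with the exchange and -0.80 ± 0.11 (adjusted p = 0.124) without R02046. Under the exchange KMO fell in 4 of 4 donors, from 48.8 ± 3.24 to 27.0 ± 4.15 CPM, without overlap. The call was lost without R07110 (-0.84, adjusted p = 0.268), without R12016 (-0.90, adjusted p = 0.0882) and without the donor block (-0.85, adjusted p = 0.646), again at log2 fold changes of similar size. As for IDO1, these fits called 0 of 12082, 5 of 12207 and 0 of 12131 genes.

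Levels of IDO1 differed 4.26-fold between the lowest and the highest uLPS library as labelled, and those of KMO 2.28-fold. With the exchange these folds were 2.46 and 1.17. The ratio of IDO1 to KMO in CPM per kb of exon was 72.2 to 77.9 with uLPS in R07110, R02046 and R14143 and 149 in R12016. With MRS2578 it was 59.6 to 80.7 in the 4 donors, so R12016 was the donor whose IDO1 stood out from its KMO, and with uLPS only.

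KYNU (ENSMMUG00000021330; chromosome 12, 30037561 to 30201955, plus strand) had the narrowest spread over the uLPS libraries, with a coefficient of variation of 11.1%. It was at 791, 711, 626 and 801 CPM with uLPS and at 634, 527, 797 and 737 CPM with MRS2578. The directions by donor were those of IDO1 and KMO, with smaller sizes and overlapping groups. The log2 fold change was -0.13 ± 0.15 (adjusted p = 0.927), -0.31 ± 0.09 (adjusted p = 0.168) with the exchange and -0.29 ± 0.12 (adjusted p = 0.360) without R02046. DESeq2's Wald test called KYNU with the exchange (adjusted p = 0.0387), in a fit added after the data were examined. That fit called 583 of all 12131 genes, against 75 in the quasi-likelihood fit.

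**Figure D2:**
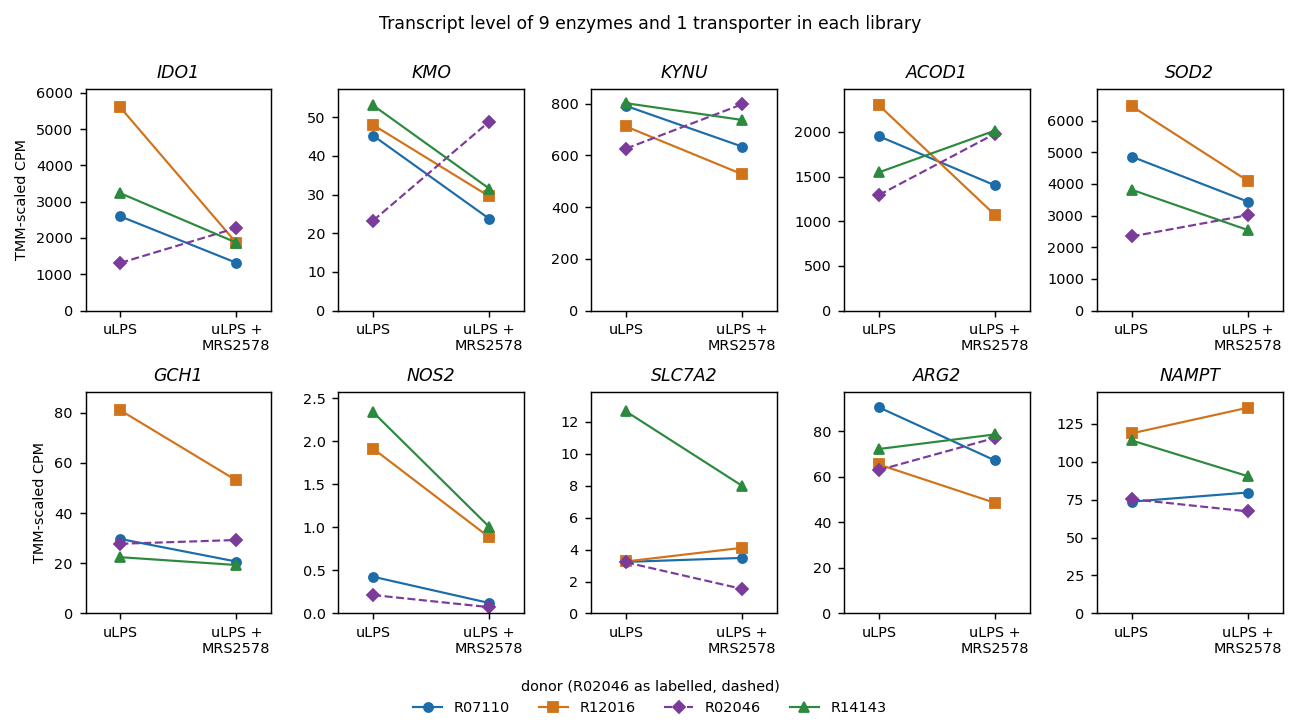
Level of each gene in TMM-scaled CPM (linear axes from 0) with uLPS and with uLPS+MRS2578, with a line joining the 2 libraries of each donor and R02046 dashed, as labelled. For IDO1 and KMO the lines of R07110, R12016 and R14143 go down and that of R02046 goes up, while for NAMPT 2 lines go up and 2 go down.

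SOD2 and ACOD1 were the abundant transcripts outside the kynurenine route, and they differed in the direction of R14143. SOD2 (ENSMMUG00000050418; chromosome 4, 10902818 to 10916241, plus strand) was at 4864, 6459, 2342 and 3818 CPM with uLPS and at 3442, 4100, 3014 and 2545 CPM with MRS2578. The level with MRS2578 was 63.5% to 70.8% of that with uLPS in R07110, R12016 and R14143 and 129% in R02046 as labelled, and the groups overlapped. Its log2 fold change was -0.35 ± 0.22 (adjusted p = 0.881), -0.53 ± 0.12 (adjusted p = 0.101) with the exchange and -0.58 ± 0.16 (adjusted p = 0.236) without R02046. With the exchange, edgeR's likelihood ratio test (adjusted p = 0.00247) and DESeq2's Wald test (adjusted p = 8.43e-06) called it. These fits called 616 and 583 of all 12131 genes, against 75 in the quasi-likelihood fit. The Wald test with the exchange was added after the data were examined.

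ACOD1 (ENSMMUG00000060734; chromosome 17, 58765080 to 58772846, plus strand) was at 1952, 2300, 1293 and 1547 CPM with uLPS and at 1402, 1071, 1979 and 2014 CPM with MRS2578. R07110 and R12016 were lower with MRS2578, with log2 differences of -0.48 and -1.10, and R14143 was higher by 0.38. As labelled, R02046 was higher by 0.61. The log2 fold change was -0.14 ± 0.29 (adjusted p = 0.956), -0.46 ± 0.22 (adjusted p = 0.344) with the exchange and -0.40 ± 0.28 (adjusted p = 0.595) without R02046. The ratio of ACOD1 to SOD2 in CPM per kb of exon went from 0.825 to 1.61 in R14143. It went from 0.817 to 0.829 in R07110, from 0.724 to 0.531 in R12016 and from 1.12 to 1.34 in R02046 as labelled. In R14143 the summed fibroblast markers were 1191 CPM with uLPS and 430 CPM with MRS2578, and the summed astrocyte markers 150.5 and 67.7 CPM, and their part in this donor's values was not tested. With the exchange, ACOD1 had a log2 fold change of -0.73 ± 0.14 (adjusted p = 0.0269) without R14143, in a fit that called 918 of 12128 genes, -0.23 (adjusted p = 0.759) without R12016 and -0.45 (adjusted p = 0.732) without R07110.

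Around arginine and nitric oxide, the levels differed more between donors than between conditions. GCH1 (ENSMMUG00000004084; chromosome 7, 116954239 to 117007670, minus strand) was at 29.7, 80.9, 27.7 and 22.4 CPM with uLPS and at 20.7, 53.0, 29.3 and 19.3 CPM with MRS2578. R12016 was highest in both conditions. The fitted log2 fold change was -0.32 ± 0.14 (adjusted p = 0.878), -0.37 ± 0.12 (adjusted p = 0.191) with the exchange and -0.46 ± 0.12 (adjusted p = 0.232) without R02046. GCH1 overlaps LOC106999432 on its strand and LOC114680031 on the other, so its counts are less certain.

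NOS2 (ENSMMUG00000010083; chromosome 16, 23369455 to 23411384, minus strand) was close to the limit of detection. With uLPS it had 14, 30, 2 and 46 reads, and with MRS2578 it had 3, 14, 1 and 18. The ratio of MRS2578 to uLPS in CPM was 0.462 in R12016 (95% exact interval 0.227 to 0.899), 0.431 in R14143 (0.235 to 0.757) and 0.285 in R07110 (0.0524 to 1.02), and these intervals cover counting error only. No ratio is given for R02046, whose libraries were both at or under 3 reads. NOS2 had the only unadjusted p under 0.05 in the edgeR fit among the 10 genes with the sample labels, where 5.14% of all genes had one. The fit gave a log2 fold change of -1.27 ± 0.36 (adjusted p = 0.878), -1.15 ± 0.43 (adjusted p = 0.223) with the exchange and -1.25 ± 0.40 (adjusted p = 0.286) without R02046.

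SLC7A2 (ENSMMUG00000022303; chromosome 8, 17629122 to 17703647, plus strand) was at 3.23, 3.26, 3.20 and 12.7 CPM with uLPS and at 3.48, 4.11, 1.54 and 8.00 CPM with MRS2578. R14143 was highest in both conditions, and the donors split, with R07110 and R12016 higher and R14143 lower with MRS2578. The log2 fold change was -0.27 ± 0.26 (adjusted p = 0.906), 0.01 ± 0.27 (adjusted p = 0.990) with the exchange and -0.14 ± 0.25 (adjusted p = 0.862) without R02046. ARG2 (ENSMMUG00000015865; chromosome 7, 129756554 to 129814313, plus strand), whose gene overlaps VTI1B on the other strand, was at 90.5, 65.4, 63.0 and 72.2 CPM with uLPS and at 67.2, 48.6, 77.1 and 78.6 CPM with MRS2578. Its log2 difference was -0.43 in both R07110 and R12016 and 0.12 in R14143, as ACOD1 was in direction. Its log2 fold change was -0.11 ± 0.15 (adjusted p = 0.934), -0.26 ± 0.11 (adjusted p = 0.316) with the exchange and -0.25 ± 0.14 (adjusted p = 0.516) without R02046.

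NAMPT (ENSMMUG00000003572; chromosome 3, 132551449 to 132589973, minus strand) was the gene with the smallest fitted effect with the sample labels. It was at 73.6, 118.6, 75.2 and 113.9 CPM with uLPS and at 79.6, 135.5, 67.2 and 90.4 CPM with MRS2578. The log2 fold change was -0.05 ± 0.12 (adjusted p = 0.965), 0.03 ± 0.11 (adjusted p = 0.914) with the exchange and -0.01 ± 0.13 (adjusted p = 0.986) without R02046. R07110 and R12016 were slightly higher with MRS2578 and R14143 had a log2 difference of -0.33.

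**Figure D3:**
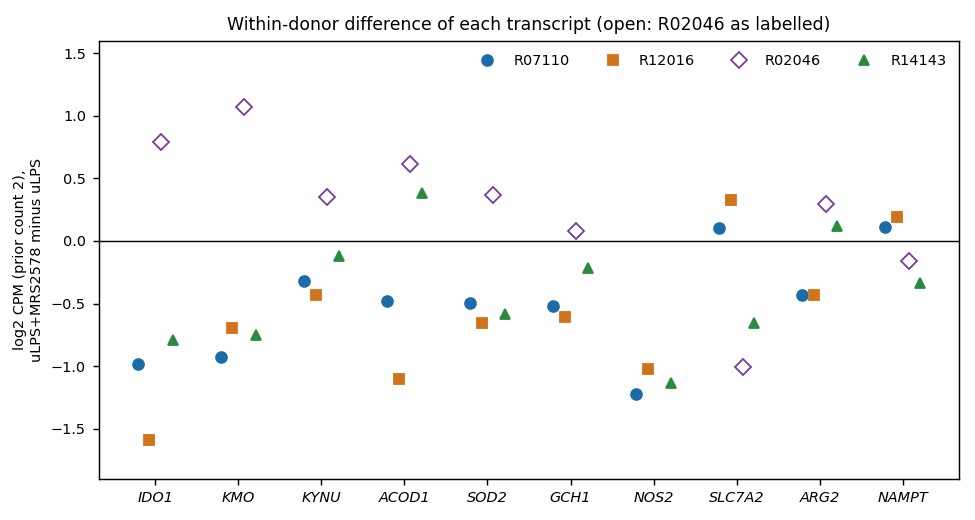
Within-donor difference in log2 CPM (prior count of 2), uLPS+MRS2578 minus uLPS, for each gene and donor, with R02046 as labelled in open symbols and left out for NOS2, where both libraries had at most 3 reads. IDO1, KMO, KYNU, SOD2 and GCH1 lie below 0 in R07110, R12016 and R14143 and above 0 in R02046.

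Across the 10 genes, 0 passed an adjusted p of 0.05 with the sample labels, against 0% of all 12131 genes, by edgeR. All 10 fitted log2 fold changes were below 0, where 52.1% of all genes were, and their median was -0.30 against -0.01 over all genes. The 10 were chosen with earlier results of these data known, so this comparison and those below describe them and are not a test of the set. With the R02046 libraries exchanged, 2 of the 10, IDO1 and KMO, were called, both lower, where 0.519% of all genes were called lower. In that fit 8 of the 10 fold changes were below 0 (49.8% of all genes), with a median of -0.41 against 0.0012. Without R02046, 0 of the 10 and 0% of 12295 genes were called, all 10 fold changes were below 0 (50.5% of all genes), and the median was -0.43 against -0.0035. An unadjusted p under 0.05 was reached by 6 of the 10 with the exchange, where 16.4% of all genes reached it, and by 6 without R02046, where 13.6% did.

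**Figure D4:**
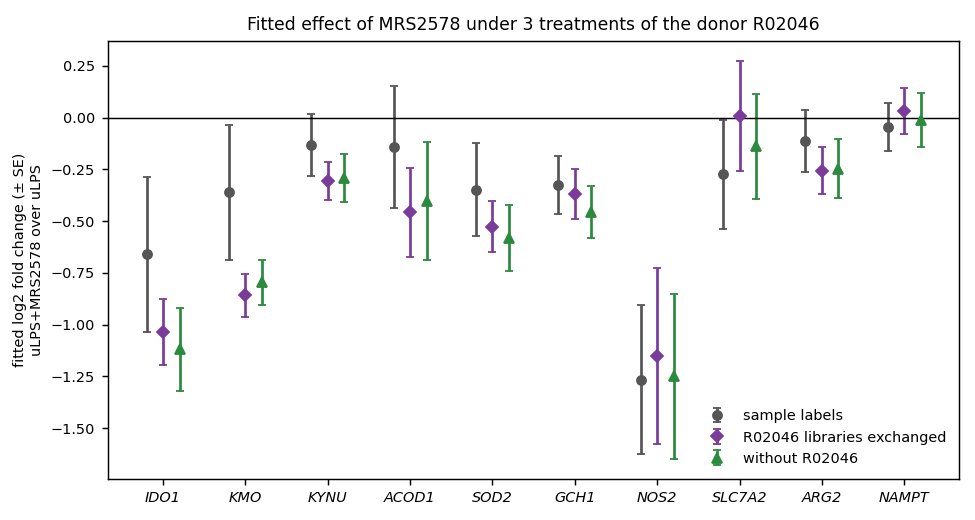
Fitted log2 fold change of each gene with its SE, uLPS+MRS2578 over uLPS, with the sample labels, with the R02046 libraries exchanged and without R02046. For IDO1 and KMO the exchange takes the estimate from -0.66 to -1.04 and from -0.36 to -0.86 and narrows the SE, while NOS2 and NAMPT move little.

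By donor, 6 of the 10 genes, IDO1, KMO, KYNU, SOD2, GCH1 and NOS2, were lower with MRS2578 in each of R07110, R12016 and R14143, where 19.8% of all genes were. Of these, 5 were higher in R02046 as labelled, where 13.2% of all genes had this pattern. NOS2 was lower in all 4 donors as labelled, as were 6.49% of all genes, but with 2 and 1 reads in R02046. The other 4 genes had mixed directions, and 0 of the 10 were higher in all of those 3 donors, where 17% of all genes were. The groups were separate, without overlap, for 0 of the 10 with the sample labels, where 0.412% of all genes were lower without overlap. They were separate for IDO1 and KMO with the exchange, where 1.56% were, and for the same 2 without R02046, where 5.51% were.

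The genes whose log2 CPM, less each donor's mean, ran most like that of a given gene were found among 7987 genes over the 8 libraries. Since each donor gives 1 difference, each r rests on 4 values and many genes reach a high r. The closest to IDO1 were MOV10 (r = 0.9994) and ATP6AP1 (r = 0.9993), and the closest to KMO were MMUT (r = 0.9992) and CC2D1B (r = 0.9979). For KYNU they were TAB2 and ACTR3, for SOD2 RNF19B and SIGLEC10, for ACOD1 POGK and NUP188, and for GCH1 DNPEP and RMDN1. For ARG2 they were GOLGA1 and OAS3, for NOS2 MCM7 and ETAA1, for SLC7A2 UBE2L3 and TBCB, and for NAMPT C1H1orf50 and RPS15, with r of at least 0.9951 for all of these.

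The other genes of these routes were read from the same fit. Of 106 listed genes, 99 were found and 86 tested, and 0 were called with the sample labels, with 50 below 0 and 36 above 0 on the log2 scale and a median of -0.04. With the R02046 libraries exchanged, 2 of the 86 were called, IDO2 and CD38, both lower, where 0.519% of all genes were called lower, and the median was 0.0080. Without R02046, 0 of 85 were called. In the tryptophan and kynurenine list, 9 of 11 tested genes were below 0 with the sample labels, with a median of -0.20, and in the NAD list 11 of 13, with a median of -0.16. With the exchange these were 8 of 11, with a median of -0.16, and 7 of 13, with a median of -0.06.

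IDO2, the paralogue of IDO1 with weaker activity on tryptophan, was scarce, at 5.63 ± 4.96 CPM after uLPS alone and 2.47 ± 1.44 CPM with MRS2578 (SD, n = 4, sample labels). The log2 difference was -1.34, -1.43 and -1.24 in R07110, R12016 and R14143 and 0.72 in R02046 as labelled. In the fit it was at -1.07 ± 0.34 (adjusted p = 0.878), -1.33 ± 0.21 (adjusted p = 0.0444) with the exchange and -1.39 ± 0.20 (adjusted p = 0.124) without R02046. QPRT, which turns quinolinate into an NAD precursor, was named after its values were seen. With the sample labels, 1 of the 86 listed genes tested was above 0 at an unadjusted p under 0.05 in the edgeR fit, and 1 was below. Among all genes, 5.14% had such a p. QPRT was the 1 above, at a log2 fold change of 1.11, and the lowest adjusted p of any gene in that fit was 0.878. With the exchange, the adjusted p of QPRT was 0.0599, so it was not called.

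CD38, which consumes NAD, averaged 150.1 ± 96.6 CPM after uLPS alone and 79.7 ± 13.9 CPM after MRS2578. Within R07110, R12016 and R14143 the log2 difference was -1.28, -1.85 and -0.61, and in R02046 as labelled 1.19. Its log2 fold change was -0.69 ± 0.46 (adjusted p = 0.882), -1.24 ± 0.18 (adjusted p = 0.0358) with the exchange and -1.25 ± 0.23 (adjusted p = 0.160) without R02046. NAMPT, on the synthesis side of the same route, was at 0.03 ± 0.11 with the exchange.

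In the itaconate and citrate cycle list, 12 of 23 genes were below 0 with the sample labels and 15 with the exchange. Citrate synthase, CS, had a log2 fold change of 0.0011 (SE 0.10), the values of single genes here and below being those with the sample labels. In the arginine and polyamine list, 12 of 22 genes were below 0 with the sample labels, but 7 with the exchange (median 0.11) and 8 without R02046 (median 0.07), with OAZ1, a brake on polyamine synthesis, at -0.06 (SE 0.13) and SAT1, which acetylates polyamines, at -0.09 (SE 0.21). In the tetrahydrobiopterin list, 2 of 5 were below 0 under both assignments, with PCBD1, which regenerates the cofactor, at -0.18 (SE 0.11) and SPR, which completes its synthesis, at 0.08 (SE 0.12). In the list for superoxide and mitochondrial peroxide, 4 of 12 were below 0, and 3 with the exchange, with the mitochondrial peroxidase PRDX3 at -0.13 (SE 0.10) and GPX1 at -0.10 (SE 0.10). None of these 4 lists held a called gene under the sample labels, the exchange or the fit without R02046, by edgeR.

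**Figure D5:**
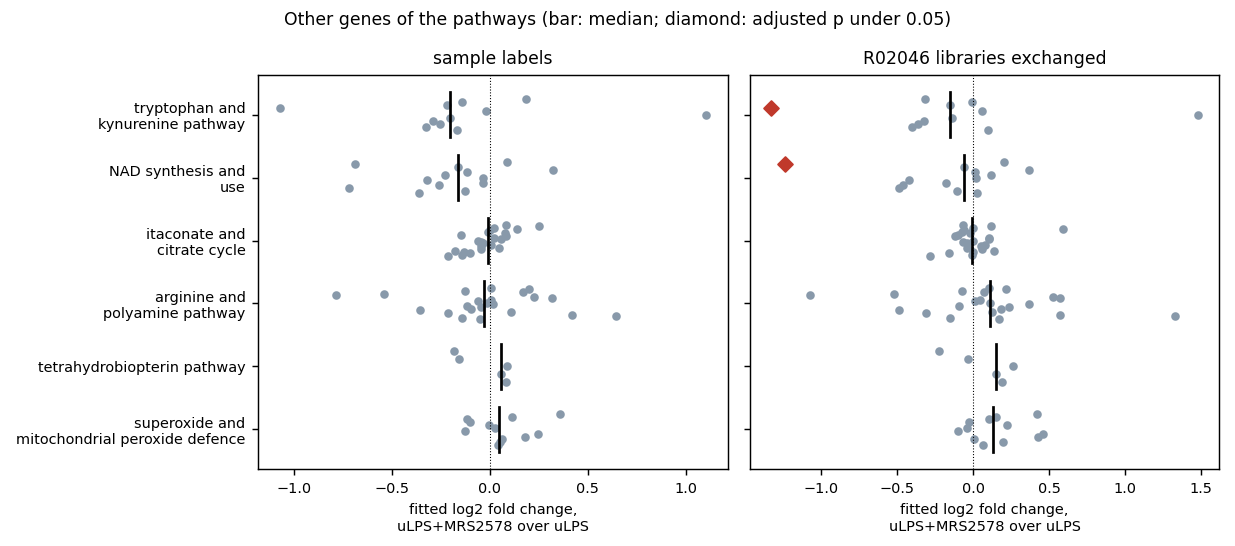
Fitted log2 fold change, uLPS+MRS2578 over uLPS, of the other genes of the 6 pathway lists, with the sample labels and with the R02046 libraries exchanged, 1 point per gene, a bar at the median of each list and a diamond for an adjusted p under 0.05. The 2 diamonds are IDO2 and CD38, both in the panel with the exchange.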

How the data were processed

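Poly(A) RNA was sequenced from primary microglia of 4 rhesus macaques, each with uLPS and with uLPS+MRS2578, which gave 8 libraries. The authors deposited whole-number read counts per Ensembl gene for 35432 genes, without normalization. Their methods name fastp, STAR and HTSeq with the genome Mmul_10, whereas the submitters' processing notes name Trimmomatic, TopHat2, SAMtools and HTSeq. Only reads within exons that mapped uniquely were counted, and the strand setting is not given in the sources used here, so overlapping genes have uncertain counts. The labels give 10 ng/mL M-CSF and the methods another concentration, and no label gives a batch.

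The sample labels gave the condition and the donor of each library. The 10 genes and the pathway lists were chosen with earlier results of these data known. No 2 libraries of a donor were duplicates (chi-square per degree of freedom of at least 19.6). Genes were kept by filterByExpr (minimum count 10), scaled by TMM and tested with the quasi-likelihood F-test of edgeR (version 4.0.16, in R version 4.3.3) with Benjamini-Hochberg adjustment over all genes tested, at 0.05. The SE is the one implied by the F statistic. The donor was a block because its libraries come from 1 animal. Deviations from the condition means correlated within donors at 0.602, 0.552, 0.458 and 0.562 for R07110, R12016, R02046 and R14143. Library depth ran from 9231109 to 32790348 counts, and intervals and floors of 3 counts cover counting error only. Log2 CPM had a prior count of 2. Gene positions, exon lengths and sequences are from RefSeq on Mmul_10, matched by symbol for 10 of 10 genes, and no protein sequence was used. Before use, the test was tried on simulated data with known changes but without donor differences, so that trial does not cover data with donor differences.

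Named are the 10 genes, P2RY6, every listed pathway gene with an adjusted p under 0.05 in either assignment of the R02046 libraries or else the 2 of highest mean CPM in its list, and the 2 genes most alike each of the 10 among those with a mean CPM of at least 10. One gene that this rule names is not reported here. Alternatives were DESeq2 (version 1.42.0) size factors and Wald test, the likelihood ratio test, the earlier quasi-likelihood estimation of edgeR, no filter, no donor block, each donor left out, and the exchange of the R02046 libraries alone or with these. The earlier estimation and the exchange with the Wald test were added after the data were examined.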

Additional observations from a re-analysis of the deposited data

Results flagged for a closer look

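Each of the 10 genes was checked in both conditions for a donor far from the other 3, which makes 20 groups of 4 values, and chance flags about 1 in 20 such groups. GCH1, the first enzyme of tetrahydrobiopterin synthesis, stood out in the uLPS library of R12016, at 80.9 CPM against 22.4 to 29.7 CPM in the other donors. SLC7A2, an arginine transporter, stood out in the uLPS library of R14143, at 12.7 CPM against 3.20 to 3.26 CPM. The same donor was the highest with MRS2578 in both cases, at 53.0 CPM for GCH1 and 8.00 CPM for SLC7A2. The summed fibroblast markers of the R14143 library were 1191 CPM with uLPS, the highest of the 8 libraries, and their part in the SLC7A2 value was not tested.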

How the results depend on the processing

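With the sample labels, 0 of the 10 genes and 0 of the other pathway genes were called by edgeR and by DESeq2 in every alternative, without the replicate block too. Of all 12131 genes, the likelihood ratio test called 5 and the Wald test 1, and the other alternatives called 0 genes. An unadjusted p under 0.05 was reached by 0 (no block, or without R12016 or R14143) to 6 (without R02046) of the 10 genes. The median of the 10 log2 fold changes ran from -0.43 (without R02046) to -0.21 (without R07110). ACOD1 went from -0.40 without R02046 to 0.18 without R12016 when single donors were left out, and NAMPT from -0.12 without R12016 to 0.044 without R14143. NOS2 did not pass the filter without R12016 or without R14143.

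With the R02046 libraries exchanged, the called genes among the 10 and among the other pathway genes were 2 and 2, also with DESeq2 size factors and with no filter. They were 3 and 8 with the likelihood ratio test and 4 and 7 with the DESeq2 Wald test, which called 616 and 583 of all 12131 genes against 75. With DESeq2 size factors 78 of 12131 genes were called, and with no filter 86 of 19045. The counts were 2 and 1 with the earlier quasi-likelihood estimation, which called 39 of 12131 genes. Without the replicate block they were 0 and 0, where 0 of all 12131 genes were called. Leaving out single donors gave 0 to 5 of the 10 and 0 to 14 of the others. They were 0 and 0 without R07110, where 0 of 12082 genes were called, and without R12016, where 5 of 12207 were. They were 5 and 14 without R14143, when IDO1, KMO, KYNU, ACOD1 and ARG2 were called among 918 of 12128 genes. The cause was not tested. NAMPT and SLC7A2 changed sign with the exchange, none of these values being called. NAMPT was at 0.033 and SLC7A2 at 0.010, at 0.026 and 0.0053 with DESeq2 size factors, 0.033 and 0.14 with the likelihood ratio test, 0.026 and 0.14 with the Wald test, 0.033 and 0.12 with the earlier estimation. NAMPT was at 0.018 with no filter, 0.029 without the replicate block and 0.0040 to 0.15 with R07110 or R14143 left out, where SLC7A2 was at 0.015 and 0.38. With the exchange, values below 0 remained for SLC7A2 with no filter (-0.03), without the block (-0.14) and without R12016 (-0.11), and for NAMPT without R12016 (-0.016). The low counts of NOS2, 1 to 46 reads, limit its precision.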
